A study of Mus musculus with 12 samples.

Results

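The angiotensin and kinin system genes described here are Ace, Enpep, Agt, Agtr1a, Bdkrb1 and Bdkrb2 (NCBI Gene 11421, 13809, 11606, 11607, 12061 and 12062), chosen by name from 18193 genes that the arrays read with probe sets of a single gene symbol. They are read by 8 probe sets, and the one whose log2 signal was highest on average stands for its gene. In 4 genes it passed the filter on low signals, which asks for a signal over the array's own median in 3 or more arrays, and was tested; in Agt and Bdkrb1 it did not, and their signals are given untested. Total RNA of whole mouse lung was hybridised to Affymetrix arrays 8 h after surgery, 3 arrays in each of 4 groups, from mice 8 to 10 weeks old. The groups were PPTA knockout mice after cecal ligation and puncture (CLP), PPTA knockout mice after sham surgery, wild-type Balb/c mice after CLP and wild-type Balb/c mice after sham surgery. CLP opens the cecum and causes abdominal sepsis that injures the lung from a distance. Tac1, formerly PPTA, encodes the precursor of substance P. The labels give no strain for the knockout mice, so genotype and strain cannot be told apart. Whether the 3 samples of a group were 3 animals is not stated either: p-values reflect only how far these samples scatter, and some of that scatter may be technical.

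In the angiotensin system, angiotensinogen is cut by renin to angiotensin I, and angiotensin-converting enzyme (ACE) on endothelium, for which the lung capillary bed is the classic site, turns this into angiotensin II, a vasoconstrictor that acts through the AT1 receptor. Aminopeptidases then trim angiotensin II to shorter peptides. Kinins such as bradykinin are released from kininogens by kallikreins, act through the B1 and B2 receptors to widen vessels and make them leak, and are inactivated by ACE, which joins both systems. ACE and the peptidase neprilysin can also cleave substance P.

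The knockout label was checked first, and the tested Tac1 probe set went against it. The tested Tac1 probe set read 337 to 530.3 on the 6 arrays labelled knockout and 2.80 to 16.1 on the 6 wild-type arrays, so these groups are called KO-labelled below, and the wild type WT. Whether that probe set lies within the deleted sequence is unknown here. Among the KO-labelled sham arrays, number 3 was unlike its group: 646 of its probe sets were 2-fold or more above both others and 758 were 2-fold or more below. Array 3 of KO-labelled CLP had 202 and 471 such probe sets, and no WT array had more than 33 and 78. The 3-prime to 5-prime signal ratio of Gapdh, a measure of RNA quality, was 0.678 to 0.843 in KO-labelled CLP, 0.729 to 0.799 in KO-labelled sham, 0.857 to 0.913 in WT CLP and 0.8004 to 0.832 in WT sham. The same ratio of beta-actin was 1.28 to 1.45 in KO-labelled CLP, below every other array. It was 1.47 to 1.59 in KO-labelled sham, 1.47 to 1.63 in WT CLP and 1.49 to 1.53 in WT sham. The part of RNA quality in the CLP and genotype differences below was not tested. Lung epithelial markers, a check of the tissue, were read on every array. The 6 measured of 7 summed to 44057 to 49407 on the KO-labelled arrays and to 51333 to 54103 on the WT arrays, without overlap.

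Ace, the gene of the converting enzyme, was lower on KO-labelled arrays after either surgery and lowest after CLP. Its representative probe set read 567, 514 and 442 on arrays 1, 2 and 3 of KO-labelled CLP, against 679, 688 and 967 in KO-labelled sham. In WT it read 1138, 1316 and 1275 after CLP, against 1103, 1211 and 1011 after sham. All 6 KO-labelled arrays therefore lay below all 6 WT arrays, and the CLP and sham arrays did not overlap in the KO-labelled mice but did in WT. Group means were 508 ± 62.6 in KO-labelled CLP, 778 ± 164 in KO-labelled sham, 1243 ± 93.3 in WT CLP and 1108 ± 99.8 in WT sham (SD, n = 3 each).

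**Figure D1:**
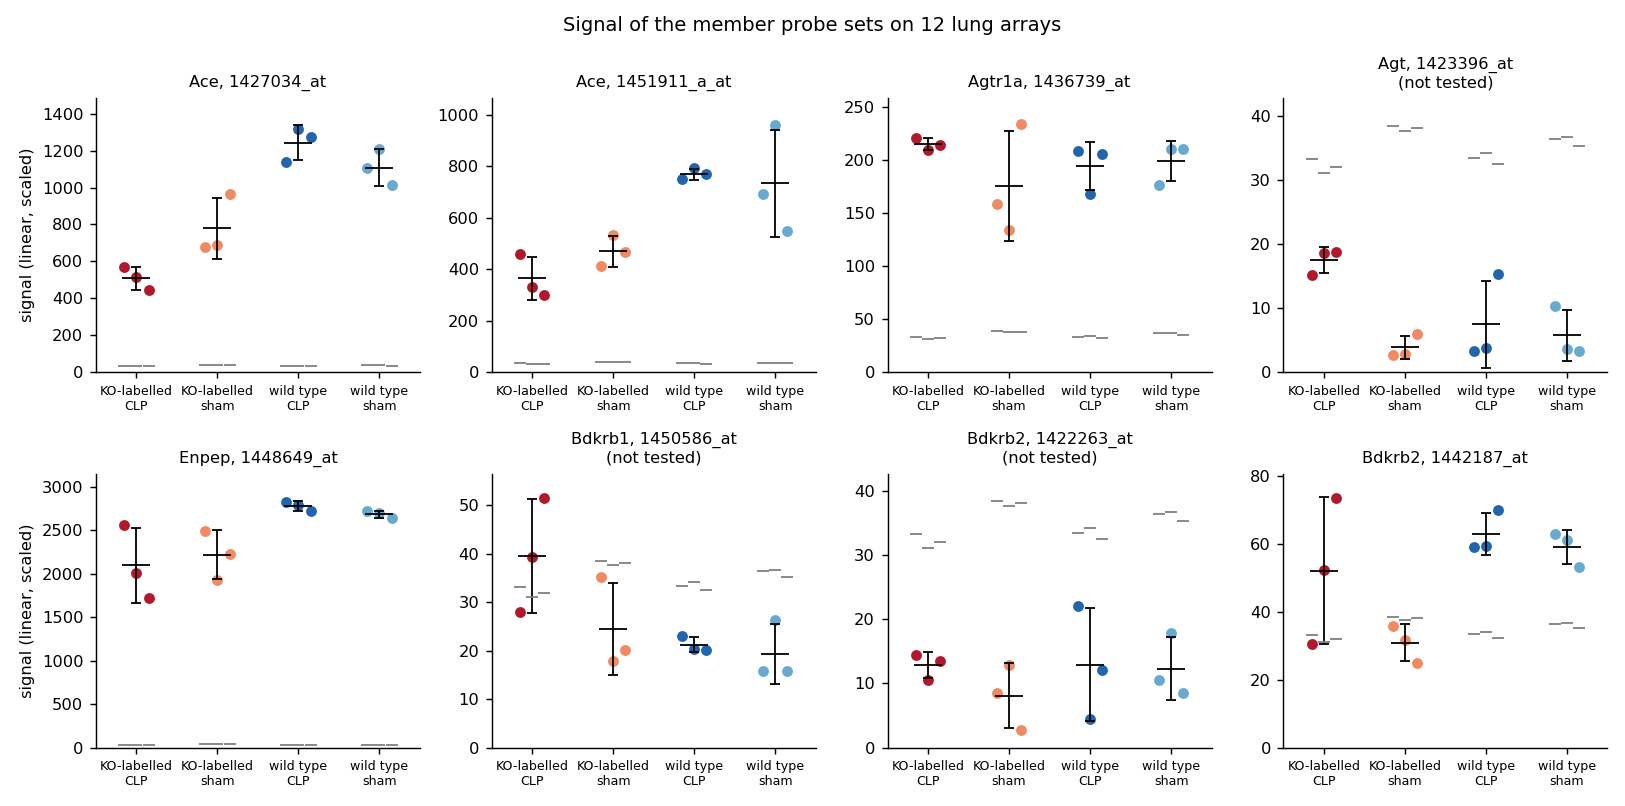
Signal (linear, scaled by the authors) of the 8 member probe sets in the 4 groups. Points are arrays 1, 2 and 3 from left to right, black bars the mean ± SD (n = 3), and grey dashes the median signal of each array. Ace (first panel) and Enpep lie lower on all 6 KO-labelled arrays than on any WT array, and Agt lies below the array median on all 12.

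RefSeq windows around the transcription start sites (250 bases before to 50 after, build GRCm38.p6) are shown for the members whose differences are described below, Ace with its annotated outer and inner starts, Enpep and Bdkrb2. Of the 6 members, 4 were in the table, and the window of Agt is not shown because its signal was below the array median throughout. Each is written 5′ to 3′ along the gene, and capitals mark matches, on either strand, to the GC box letters GGGCGG, which the factor Sp1 binds, or the TATA box letters TATAAA.

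Ace, outer start, chr11:105967698-105967997, + strand: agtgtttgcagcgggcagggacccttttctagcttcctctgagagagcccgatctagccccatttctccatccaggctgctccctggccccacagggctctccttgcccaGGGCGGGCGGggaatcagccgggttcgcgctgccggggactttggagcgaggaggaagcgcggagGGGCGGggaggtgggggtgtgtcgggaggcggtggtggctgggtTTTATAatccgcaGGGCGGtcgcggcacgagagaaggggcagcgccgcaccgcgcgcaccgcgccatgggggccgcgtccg

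Ace, inner start, chr11:105974939-105975238, + strand: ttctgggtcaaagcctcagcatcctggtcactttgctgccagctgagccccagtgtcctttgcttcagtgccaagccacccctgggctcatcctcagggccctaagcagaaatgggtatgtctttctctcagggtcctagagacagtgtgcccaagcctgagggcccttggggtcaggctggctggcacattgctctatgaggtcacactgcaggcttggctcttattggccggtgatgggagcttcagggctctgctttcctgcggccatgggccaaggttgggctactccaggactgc

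Enpep, chr3:129332700-129332999, - strand: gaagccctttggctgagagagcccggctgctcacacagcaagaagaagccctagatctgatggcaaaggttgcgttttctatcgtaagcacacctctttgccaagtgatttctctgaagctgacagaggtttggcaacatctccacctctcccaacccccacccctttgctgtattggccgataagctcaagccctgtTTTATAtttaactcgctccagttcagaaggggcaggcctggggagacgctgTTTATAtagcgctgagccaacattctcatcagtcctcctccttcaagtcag

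Bdkrb2, chr12:105562922-105563221, + strand: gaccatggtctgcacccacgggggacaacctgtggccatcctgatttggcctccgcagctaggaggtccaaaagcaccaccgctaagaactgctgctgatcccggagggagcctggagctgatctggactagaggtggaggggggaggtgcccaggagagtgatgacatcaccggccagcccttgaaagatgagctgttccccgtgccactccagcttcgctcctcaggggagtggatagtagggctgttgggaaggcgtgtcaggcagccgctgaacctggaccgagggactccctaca

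The outer Ace window held 4 matches to the GC box, a pair of which overlap, and 1 to the TATA box, 31 bases before the start, and was 69.7% G and C. That TATA box match lay on the strand opposite to the gene. The inner Ace window held no match and was 59.0% G and C. The Enpep window held 2 matches to the TATA box, both on the strand opposite to the gene. They began 52 bases and 1 base before the start, the latter running across it. The Bdkrb2 window held none to either motif. Among all 32851 windows of the table, 35.7% held the GC box and 13.6% the TATA box. None of the 4 windows shown held the AP-1 letters TGANTCA (7.81% of all windows) or the cyclic AMP response element letters TGACGTCA (1.79%). Which Ace start the lung signal comes from cannot be read from these data, since where the probe sets lie in the gene is unknown here.

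In KO-labelled mice, CLP against sham asks how the septic lung responds under that label. Ace was the 1 member of 4 tested that was called (limma, adjusted p under 0.05), and it fell by 0.60 on the log2 scale (SE 0.14, 95% interval -0.91 to -0.29, adjusted p = 0.0081), which is 1.52-fold lower. Of all 24574 probe sets tested in this comparison, 29.2% were called (10.4% higher and 18.8% lower), so 1 of 4 is near the share of the whole array. The call held without each array in turn (adjusted p up to 0.030, without array 3 of KO-labelled CLP). With arrays centred on their medians, which moves the median log2 difference of all probe sets from -0.12 to 0.10, the Ace difference was -0.37 and was not called (adjusted p = 0.057), and with only these 2 groups in the model the adjusted p was 0.066. The other Ace probe set read 461, 331 and 299.96 in KO-labelled CLP and 411, 531 and 468 in KO-labelled sham, which overlap. Its difference was -0.38 ± 0.19 (SE, adjusted p = 0.15), and it was called only without array 1 of KO-labelled CLP (-0.56, adjusted p = 0.039).

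In WT no member was called for CLP against sham by limma, 0 of 4 tested, where 0.948% of all probe sets were called (0.814% higher and 0.134% lower), and none of the 4 had an unadjusted p under 0.05. The Ace difference was 0.17 ± 0.14 (SE, 95% interval -0.14 to 0.47, adjusted p = 0.87). The difference between the CLP responses, KO-labelled minus WT, was -0.77 ± 0.20 for Ace (95% interval -1.20 to -0.33). This missed the threshold (adjusted p = 0.052). The test called 4.05% of all probe sets (1.69% higher and 2.36% lower) and by limma 0 of the 4 members, of which 1, Ace, was below 0.05 before adjustment. With an array left out the Ace value was called in 2 of 12 runs. These were without array 1 of KO-labelled CLP (-0.85, adjusted p = 0.025) and without array 3 of KO-labelled sham (-0.60, adjusted p = 0.027). Elsewhere the adjusted p was up to 0.14, without array 2 of WT CLP. Of 9 other alternatives 1 called it, array weights (-0.61, adjusted p = 0.0080), and the adjusted p was up to 0.090, with a gene's probe sets averaged. For the other Ace probe set the value was -0.49 ± 0.27 (adjusted p = 0.31).

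The genotype difference after CLP was the largest Ace difference measured. Ace was 2.45-fold lower in KO-labelled CLP than in WT CLP (log2 difference -1.29 ± 0.14 SE, 95% interval -1.60 to -0.98, adjusted p = 6.6e-05). Its other probe set read 461, 331 and 299.96 in KO-labelled CLP, against 749, 792 and 769 in WT CLP, again with no overlap, and gave -1.10 ± 0.19 (adjusted p = 0.0015). Both were called in all 12 runs that left out an array, with adjusted p up to 7.6e-04 and 0.0088, and under every other alternative run. Of the 4 members tested, 2 were called, Ace and Enpep, both lower, where 29.5% of all probe sets were called (12.6% higher and 16.9% lower).

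After sham surgery Ace was 1.44-fold lower in KO-labelled than in WT lung (log2 difference -0.52 ± 0.14 SE, adjusted p = 0.039), the 1 member of 4 called, where 8.34% of all probe sets were called (4.48% higher and 3.86% lower). This call was lost in 9 of 12 runs with an array left out: without array 2 of KO-labelled CLP, array 1 or 2 of KO-labelled sham, or any of the 6 WT arrays, the adjusted p was 0.053 to 0.15 and the difference -0.59 to -0.44. It was also lost with quantile normalisation (adjusted p = 0.0505), no filter (0.056), no intensity trend (0.070) and only the 2 groups in the model (0.088). Without array 3 of KO-labelled sham, where Ace read highest of that group, the difference was -0.69 (adjusted p = 0.0026). The other probe set gave -0.61 ± 0.19 (adjusted p = 0.076), with no overlap between its 411, 531 and 468 in KO-labelled sham and its 691, 959 and 549.8 in WT sham. In the order of Ace levels by the representative probe set, KO-labelled CLP lay below KO-labelled sham. That step was not called with median centring or with only those 2 groups in the model, and the other probe set overlapped there. KO-labelled sham lay below WT sham by a difference that depends on single arrays, and WT sham and WT CLP did not differ beyond their spread.

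**Figure D2:**
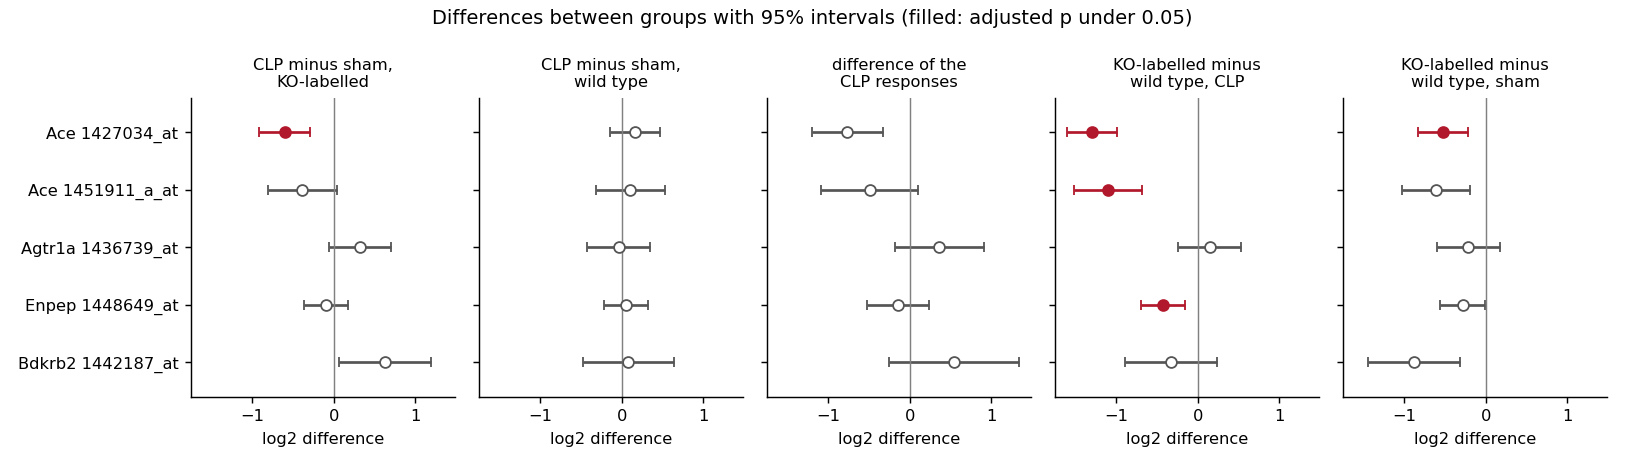
Log2 differences of the 5 tested member probe sets, 1 panel for each comparison, with 95% intervals from limma (12 arrays). Filled red points have an adjusted p under 0.05. Ace is lower in KO-labelled CLP with both probe sets (-1.29 and -1.10), and the WT panel has no filled point.

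Markers of several cell types were lower beside Ace. Of the 10 endothelial markers, all tested, 5 were called lower in KO-labelled than in WT CLP and none higher, where 16.9% of all probe sets were called lower (median log2 difference -0.36, against -0.05 over all probe sets tested). With CLP in KO-labelled mice 4 of the 10 fell and none rose, where 18.8% of all probe sets fell, and with median centring 3 fell and 3 rose. Their summed signal was 11251 to 11733 in KO-labelled CLP and 11752 to 12949 in KO-labelled sham, against 14531 to 14965 in WT CLP and 14006 to 14703 in WT sham, and the lowest reading of any of them was 226 (Sox17). The markers called after CLP were the vascular endothelial growth factor receptor Kdr (-1.46 ± 0.24 SE, adjusted p = 0.0010), the angiopoietin receptor Tek (-1.33 ± 0.17, adjusted p = 2.2e-04), Tie1 (-0.70), Sox17 (-1.05) and Eng (-0.23). The Eng call held in 2 of 12 runs with an array left out (adjusted p up to 0.17, without array 3 of WT CLP), and the fall of Tie1 with CLP in KO-labelled mice (-0.35) in 5 of 12 (up to 0.11, without array 2 of KO-labelled sham). The endothelial markers not called in a comparison went both ways. With CLP in KO-labelled mice Cdh5 was at 0.34, Cldn5 at 0.25 and Pecam1 at 0.14, but Emcn at -0.29, Vwf at -0.21 and Eng at -0.06. Between genotypes after CLP Vwf was at 0.08 and Pecam1 at 0.01, but Cdh5 at -0.37, Emcn at -0.35 and Cldn5 at -0.13. Of the 9 pericyte and smooth muscle markers 3 were lower in KO-labelled than in WT CLP, Pdgfrb (-0.61), Cspg4 (-0.91) and Notch3 (-0.59), and 4 fell with CLP in KO-labelled mice, with none called higher in either. Of those 4 falls, Cnn1 was called in all 12 runs with an array left out, Acta2 in 8, Des in 3 and Notch3 in 2. Those not called between genotypes after CLP went both ways. Tagln was at 0.16, Rgs5 at 0.14 and Myh11 at 0.03, but Cnn1 at -0.57, Des at -0.43 and Acta2 at -0.15. Of the 6 fibroblast markers 2 were lower after CLP between genotypes, Col1a1 (-1.37) and Col1a2 (-0.85). With CLP in KO-labelled mice 3 of the 6 were called lower and 1 higher by limma, Pdgfra (0.35, adjusted p = 0.024). Of these calls, Col1a2 held in all 12 runs with an array left out, Pdgfra and Dcn in 9 and Col1a1 in 4. In whole lung, fewer cells of a type and less RNA per cell cannot be told apart, and the part of these cell types in the Ace difference was not tested. Of the 6 lung epithelial markers tested, 4 were lower in KO-labelled than in WT CLP and none higher, against the same 16.9%. Macrophage markers summed to 7180 to 7908 in KO-labelled CLP, to 1575, 1902 and 7467 in KO-labelled sham, and to 1556 to 1726 and 1324 to 1569 in WT CLP and sham.

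**Figure D3:**
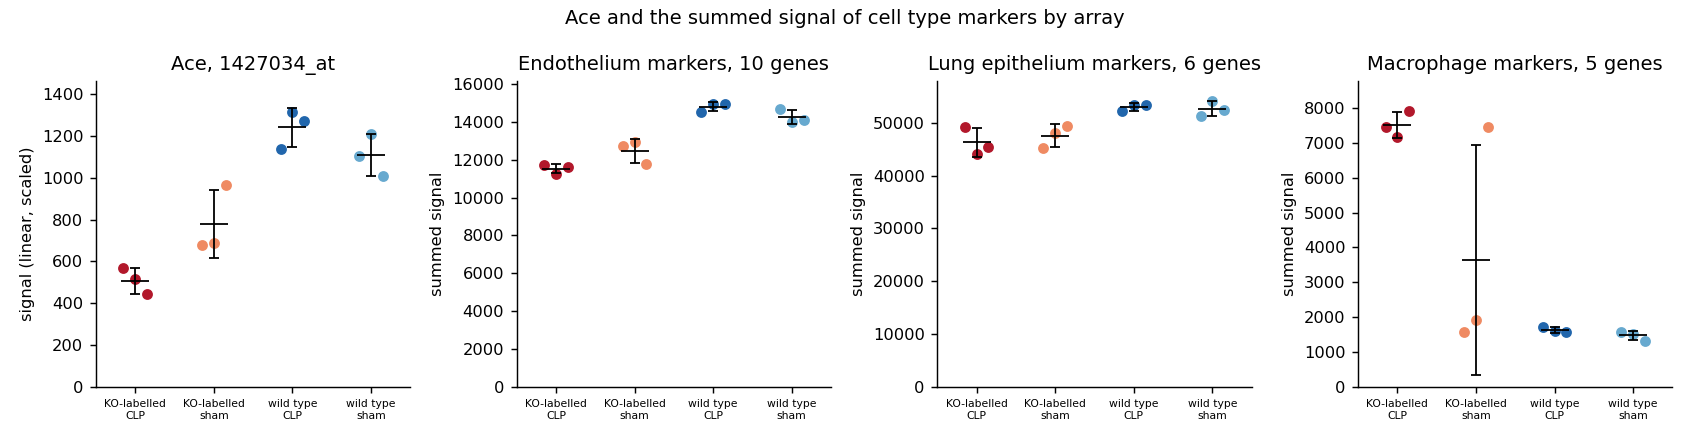
Ace signal (left) and the summed signal of the endothelial (10 genes), lung epithelial (6 genes) and macrophage (5 genes) markers, by group. Points are arrays 1, 2 and 3 and bars the mean ± SD (n = 3). Endothelial sums are 11251 to 12949 on KO-labelled arrays and 14006 to 14965 on WT arrays.

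Enpep encodes aminopeptidase A, which removes the first residue of angiotensin II. Its probe set read 2562, 2003 and 1719 in KO-labelled CLP, against 2495, 1933 and 2222 in KO-labelled sham. In WT it read 2823, 2794 and 2720.0 after CLP, against 2721, 2694 and 2638 after sham. Every KO-labelled array was below every WT array, the CLP and sham arrays overlapped in either genotype, and the KO-labelled arrays were the more spread (SD 429 and 281 after CLP and sham, against 53.0 and 42.2).

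Enpep was 1.34-fold lower in KO-labelled than in WT CLP (log2 difference -0.43 ± 0.13 SE, 95% interval -0.70 to -0.16, adjusted p = 0.022). That call was lost in 5 of 12 runs with an array left out, with an adjusted p of 0.066 without array 2 and 0.086 without array 3 of KO-labelled CLP (difference -0.29), and of 0.065, 0.067 and 0.053 without arrays 1, 2 and 3 of WT CLP. After sham the difference was -0.28 ± 0.13 (adjusted p = 0.20). CLP against sham gave -0.09 (95% interval -0.36 to 0.18) in KO-labelled mice and 0.05 (95% interval -0.22 to 0.32) in WT.

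**Figure D4:**
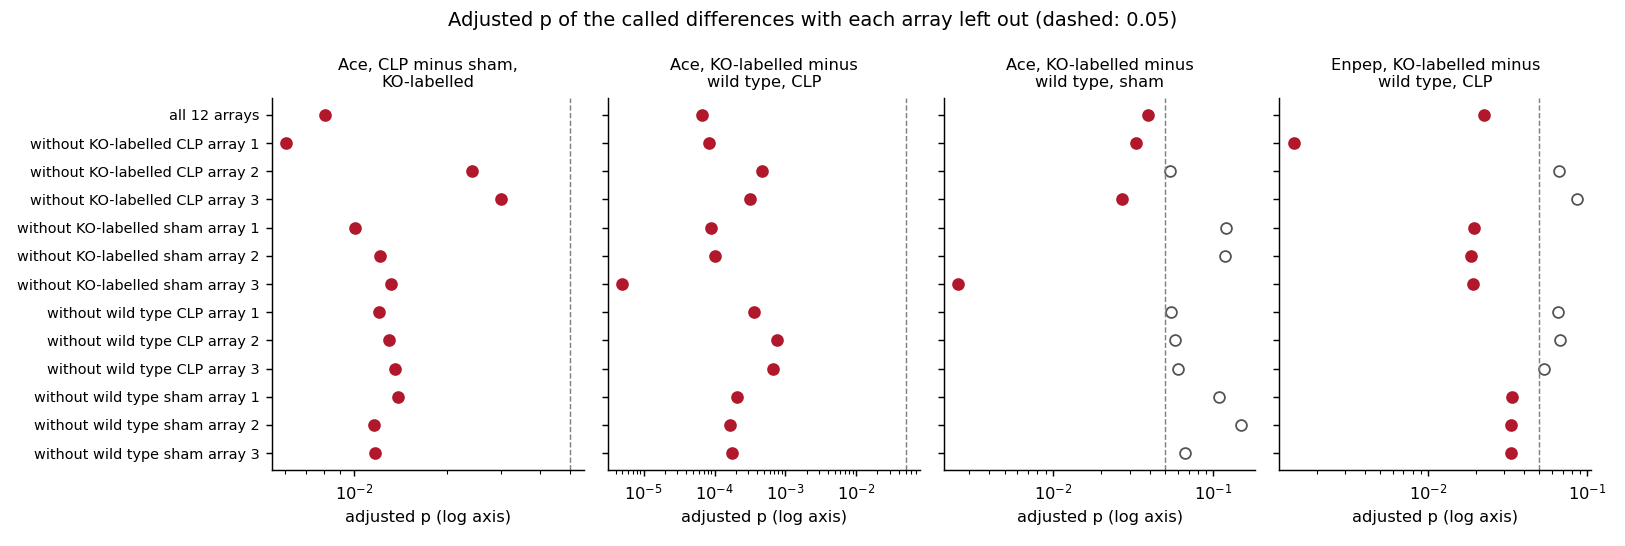
Adjusted p from limma (log axis, scaled separately in each panel) for the 4 called member differences, with all 12 arrays and with each array left out. The dashed line is 0.05 and filled points lie under it. Ace after CLP is filled in every run, Ace after sham in 3 of the 12 runs with an array left out and Enpep after CLP in 7.

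Agt, the gene of angiotensinogen, which is made chiefly in liver, was below the array median on all 12 arrays and was not tested. Its signal was 15.1, 18.5 and 18.7 in KO-labelled CLP, against 2.67, 2.89 and 5.95 in KO-labelled sham. In WT CLP it was 3.32, 3.75 and 15.3, against 10.3, 3.63 and 3.30 in WT sham. The CLP and sham arrays did not overlap in KO-labelled mice and overlapped in WT. With no filter the KO-labelled difference was 1.54 ± 0.42 (SE, adjusted p = 0.026), on a scale where the added 3.47 is close to the KO-labelled sham signal. Hepatocyte markers, 7 measured and 1 tested, summed to 66.9 to 73.6 in KO-labelled CLP, 54.9 to 84.8 in KO-labelled sham, 64.9 to 70.1 in WT CLP and 71.1 to 80.7 in WT sham, so the CLP and sham sums overlapped in KO-labelled mice.

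Agtr1a encodes the AT1a receptor, through which angiotensin II contracts vessels. It read 220.5, 209 and 214 in KO-labelled CLP, against 158, 134 and 233 in KO-labelled sham. In WT it read 208, 168 and 206 after CLP, against 177, 209.8 and 209.9 after sham. Sham and CLP arrays overlapped in either genotype, and array 3 of KO-labelled sham was the highest of all 12. No comparison called it: the CLP difference in KO-labelled mice was 0.32 ± 0.18 (SE, 95% interval -0.06 to 0.71, adjusted p = 0.19), and that in WT -0.04 (95% interval -0.42 to 0.35). Without array 3 of KO-labelled sham the KO-labelled difference was 0.55 (adjusted p = 0.0094), it was 0.55 with median centring (adjusted p = 0.035), and it was 0.47 with array weights (adjusted p = 0.024). Those were the only calls, 1 in 12 runs with an array left out and 2 in 10 other alternatives. With an array left out the difference went down to 0.15, and the adjusted p up to 0.56, without array 2 of KO-labelled sham. The genotype difference was 0.15 after CLP (95% interval -0.24 to 0.53) and -0.21 after sham (95% interval -0.60 to 0.17).

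Bdkrb2 and Bdkrb1 lie next to each other in the genome and encode the B2 receptor, present in resting tissue, and the B1 receptor, known for its induction by injury and cytokines. The representative Bdkrb2 probe set read 30.5, 52.4 and 73.6 in KO-labelled CLP, against 35.8, 31.7 and 25.0 in KO-labelled sham. It read 59.2, 59.5 and 69.96 in WT CLP, against 62.8, 61.3 and 53.2 in WT sham. The KO-labelled sham arrays lay below all WT arrays and below the array median on all 3 arrays, whereas KO-labelled CLP ran from within the sham range to above every WT array.

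The genotype difference of Bdkrb2 after sham was -0.88 ± 0.26 (SE, 95% interval -1.44 to -0.31), or 1.84-fold lower in KO-labelled lung, with an adjusted p of 0.057 that missed the threshold. It was called without array 1 (adjusted p = 0.014) or array 3 (adjusted p = 0.023) of KO-labelled CLP. It was also called with quantile normalisation (-0.95, adjusted p = 0.042), median centring (-0.95, adjusted p = 0.043) and array weights (-0.78, adjusted p = 0.012). In all, the sham difference was called in 2 of 12 runs with an array left out (adjusted p up to 0.16, without array 1 of WT sham). Of 9 other alternatives 4 called it (adjusted p up to 0.097, with no filter). The CLP difference in KO-labelled mice was 0.63 ± 0.26 (adjusted p = 0.085). Without array 1 of KO-labelled CLP it was 0.95 (adjusted p = 0.0064), with quantile normalisation 0.84 (adjusted p = 0.035) and with median centring 0.86 (adjusted p = 0.028), while without array 3 of that group it was 0.36 (adjusted p = 0.31). In WT the CLP difference was 0.08 (95% interval -0.48 to 0.65). The other Bdkrb2 probe set read 2.81 to 22.0 on the 12 arrays, below the array median on each, and was not tested.

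Bdkrb1 was above the array median on 2 of 12 arrays, both of KO-labelled CLP, and was not tested. It read 27.9, 39.2 and 51.4 in KO-labelled CLP, against 35.2, 17.9 and 20.2 in KO-labelled sham. It read 23.1, 20.4 and 20.2 in WT CLP, against 15.7, 26.4 and 15.8 in WT sham. All 3 arrays of KO-labelled CLP lay above all 6 WT arrays, and they overlapped with KO-labelled sham. With no filter the difference of KO-labelled from WT CLP was 0.76 ± 0.31 (SE, adjusted p = 0.13), and the CLP differences were 0.64 (adjusted p = 0.21) in KO-labelled and 0.15 (adjusted p = 0.97) in WT mice.

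The rest of both pathways was described by lists of 21 angiotensin and 14 kinin genes, of which 16 and 12 were measured and 10 and 8 tested. As for the members, the probe set of highest mean log2 signal stands for each gene. Of the genes called below, Nln, Prep and Thop1 have 2 probe sets each, Atp6ap2 3 and Prcp 4, and whether their other probe sets go the same way is not described here. The angiotensin genes tested were mainly peptidases. In KO-labelled CLP against sham 4 of the 10 fell and none rose, where 18.8% of all probe sets fell and 10.4% rose (median log2 difference -0.24, against -0.12 over all probe sets tested). These were Rnpep, aminopeptidase B (-0.77 ± 0.14 SE, adjusted p = 0.0018), Anpep, aminopeptidase N, which trims angiotensin III (-0.71 ± 0.23, adjusted p = 0.035), the thimet oligopeptidase Thop1 (-0.91 ± 0.32, adjusted p = 0.048) and its relative neurolysin, Nln (-0.42 ± 0.14, adjusted p = 0.040). Rnpep read 128, 116 and 108 in KO-labelled CLP, against 178, 214 and 215 in KO-labelled sham, and 170.1, 219.7 and 209.7 in WT CLP, against 178, 171 and 153 in WT sham. Its 3 KO-labelled CLP arrays lay below all the others. Thop1 was weak: it read 25.2, 30.5 and 14.9 in KO-labelled CLP, below the array median on all 3 arrays. It overlapped with the 29.3 to 78.0 of KO-labelled sham. The Thop1 call was lost with no filter (adjusted p = 0.084) and with 50% of the median array median added to the signal (0.053). The Rnpep call held in all 12 runs with an array left out, while Anpep was called in 8, Nln in 3 and Thop1 in 2, with the highest adjusted p of 0.14 and 0.11 without array 2 of KO-labelled CLP for Anpep and Nln, and of 0.20 without array 2 of KO-labelled sham for Thop1. With median centring 1 of the 10 fell and 3 rose, and with quantile normalisation 1 fell and 1 rose, the one that fell being Rnpep in both.

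On the kinin side 1 of 8 rose with CLP in KO-labelled mice and none fell (median of the 8 -0.10), where 10.4% of all probe sets rose and 18.8% fell. The 1 that rose was Xpnpep1, a soluble aminopeptidase P able to cut bradykinin (0.28 ± 0.10 SE, adjusted p = 0.046). That call was made in none of the 12 runs with an array left out (adjusted p up to 0.11, without array 3 of KO-labelled sham). In WT, where 0.948% of all probe sets were called, none of the 18 tested genes was called by limma, and none had an unadjusted p under 0.05.

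Between genotypes after CLP, 4 of the 10 angiotensin genes were lower and 2 higher in KO-labelled lung, where 16.9% of all probe sets were lower and 12.6% higher (median -0.34, against -0.05 over all probe sets). The lower ones were Anpep (-1.17 ± 0.23 SE, adjusted p = 0.0029), Thop1 (-0.99 ± 0.32, adjusted p = 0.034), prolyl endopeptidase, Prep (-0.95 ± 0.23, adjusted p = 0.0099), and Rnpep (-0.74 ± 0.14, adjusted p = 0.0019). Anpep read 69.4, 39.7 and 51.5 in KO-labelled CLP, against 123, 139.9 and 106 in WT CLP, with no overlap. Higher were the prorenin receptor Atp6ap2 (0.27 ± 0.08, adjusted p = 0.019) and prolylcarboxypeptidase, Prcp (0.52 ± 0.18, adjusted p = 0.043), which cuts the last residue of angiotensin II. Prcp was called in 6 of 12 runs with an array left out (adjusted p up to 0.13, without array 2 of WT CLP), Thop1 in 8 (up to 0.13, without array 3 of KO-labelled CLP) and Atp6ap2 in 11 (0.073 without array 2 of WT CLP). Anpep, Prep and Rnpep were called in all 12. Thop1, below the array median on every KO-labelled CLP array, was not called with no filter (adjusted p = 0.060). Of the 8 kinin genes none was called by limma and none had an unadjusted p under 0.05, among them the C1 inhibitor gene Serping1, which restrains kallikrein (95% interval -0.15 to 0.15). Mme, neprilysin, was at -0.36 ± 0.15 (adjusted p = 0.10).

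After sham surgery, where 8.34% of all probe sets were called (4.48% higher and 3.86% lower), none of the 10 angiotensin genes was called by limma. An unadjusted p under 0.05 was found for 1 of them. Of the 8 kinin genes 1 was lower in KO-labelled lung, Xpnpep1 (-0.36 ± 0.10 SE, adjusted p = 0.037). Xpnpep1 was called in 4 of 12 runs with an array left out (adjusted p up to 0.12, without array 2 of WT sham). Below the filter were 6 measured angiotensin genes, among them the receptor genes Agtr1b, Agtr2 and Mas1, and 4 measured kinin genes, among them the kininogen gene Kng1 (2.45 to 10.99 on the 12 arrays) and plasma kallikrein, Klkb1 (7.21 to 28.0). Listed genes without a probe set of a single symbol, renin (Ren1) among them, were not analysed here.

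**Figure D5:**
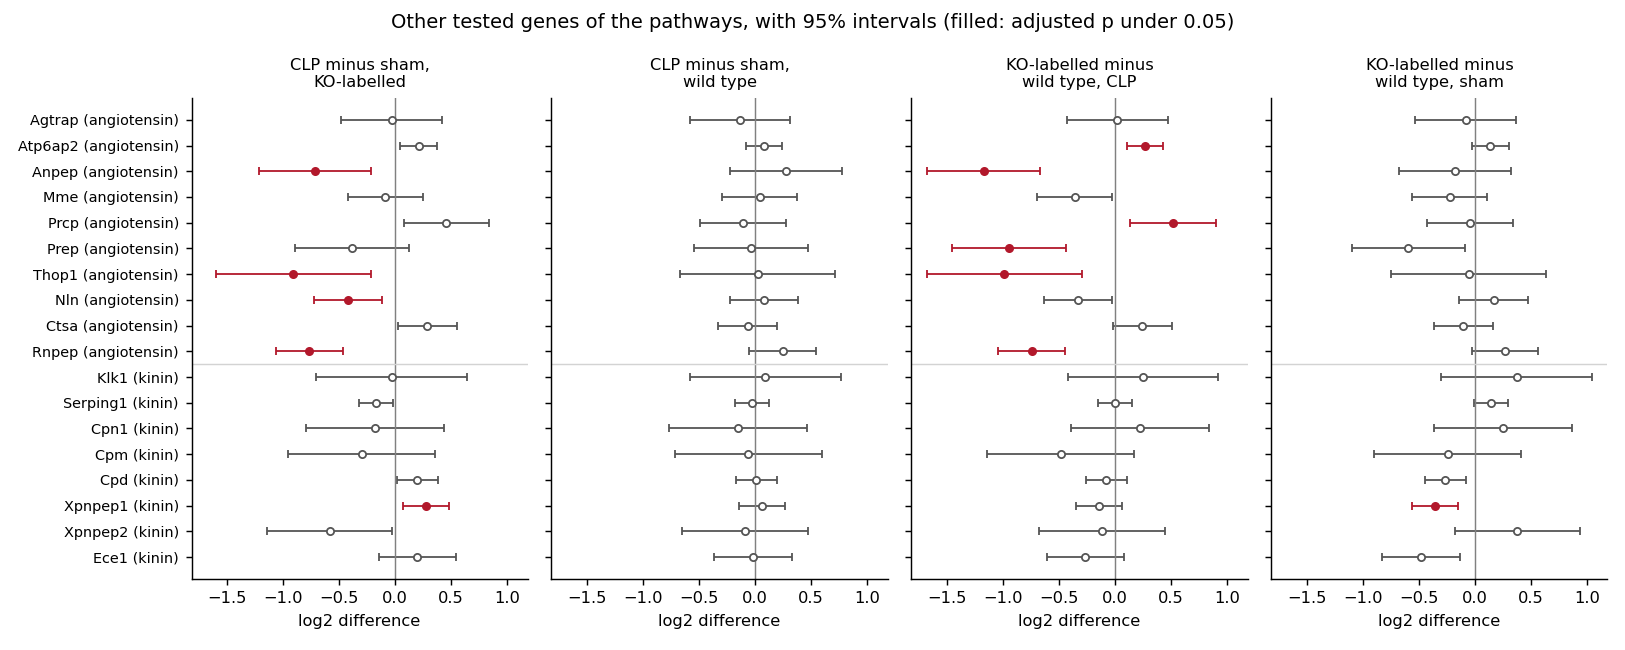
Log2 differences with 95% intervals for the 10 tested angiotensin genes (above the grey line) and 8 tested kinin genes (below it) in 4 comparisons. Filled red points have an adjusted p under 0.05. Rnpep and Anpep are lower in KO-labelled CLP in the left panel and in the third, and the WT panel has no filled point.

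For each tested member the 3 genes with the most similar pattern over the 12 arrays were taken by Pearson r of log2 signal, as a description over arrays that share groups. Nearest to Ace were Coro2b (r = 0.985), Cyb5a (0.979) and Polr3gl (0.963). Coro2b averaged 99.1 in KO-labelled CLP and 151 in KO-labelled sham, against 241 and 237 in WT CLP and sham, the same order of group means as Ace. For Enpep they were Vcpkmt (0.954), neprilysin, Mme (0.952), and Maged2 (0.947), so that another peptidase of the pathway was among its 3 nearest. Mme read 1277, 1007 and 799.8 in KO-labelled CLP and 1206, 895 and 1149 in KO-labelled sham, and in these 6 arrays its rank order was that of Enpep. Nearest to Agtr1a were Ifi30 (0.918), Cr1l (0.895) and Ctsc (0.889), and nearest to Bdkrb2 Tubb6 (0.948), Tex30 (0.928) and Tmem45a (0.914).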

How the data were processed

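Transcripts were measured in 12 whole-lung RNA samples on Affymetrix arrays, 3 per group, with groups taken from the labels. The authors deposited 1 linear signal intensity per probe set and array; GCOS, MAS5 and Affymetrix Expression Console are named per the submitters' processing notes, without versions or order. The mean without the lowest and highest 2% was 150.001 on every array, and array medians ran from 31.1 to 38.4. Arrays, by their number, limit the precision.

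After 64 control probe sets were left out, 45037 remained, 34945 naming 1 gene symbol (34741 found among RefSeq genes), 932 naming several and 9160 naming none. RefSeq tables (GRCm38.p6) gave names, neighbours and promoter windows. Values were log2 of the signal plus 3.47, 10% of the median array median, which pulls folds of weak genes towards 0. The 24574 probe sets above the array median on at least 3 arrays entered limma 3.58.1 (R 4.3.3) (4 group means, contrasts, intensity trend, Benjamini-Hochberg over all tested), and the procedure was tested on simulated data. The labels and files give no batch.

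Members and lists were chosen with earlier results of these data known. The genes named are all 6 members, pathway genes called or needed to describe a role, and the 3 genes nearest each tested member by Pearson r. Groups of 3 were not tested for outlying arrays. The alternatives are listed with their effect in the closing part.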

Additional observations from a re-analysis of the deposited data

Results flagged for a closer look

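The CLP response of Rnpep, aminopeptidase B, differed between the genotypes by limma's interaction test: KO-labelled minus WT, -1.01 ± 0.19 (SE, adjusted p = 0.020), from responses of -0.77 ± 0.14 in KO-labelled and 0.25 ± 0.14 in WT mice. Of the 10 angiotensin genes tested, Rnpep was the 1 called for this difference, and none of the 8 kinin genes or the 4 members was. The same test called 4.05% of all probe sets (1.69% higher and 2.36% lower). The Rnpep call held in 8 of 8 other alternatives and in 6 of 12 runs with an array left out. It was lost without array 2 of KO-labelled CLP (adjusted p = 0.051), array 2 of KO-labelled sham (0.050), array 2 or 3 of WT CLP (0.070 and 0.055) and array 2 or 3 of WT sham (0.056 and 0.058), with differences of -1.03 to -0.94.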

How the results depend on the processing

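With 1 member called for CLP in KO-labelled mice, the count was 2 with array weights, median centring, quantile normalisation or no filter, and 0 with only the groups compared. With median centring the 2 were Agtr1a and Bdkrb2, both higher, and Ace was not called; with no filter the second was Agt, below the array median throughout. For the difference of the CLP responses it was 1 with array weights, against 0. After CLP between genotypes it was 1 without the intensity trend, against 2. After sham it was 2 with array weights, median centring or a gene's probe sets averaged, and 0 with no filter, no trend, only the groups compared or the replicate block, against 1. With each array left out the counts were 1 to 2, 0 to 1, 1 to 2 and 0 to 2 in that order of comparisons, and 0 throughout for CLP in WT. Probe sets called were 7172 for CLP in KO-labelled mice (2669 with only the groups compared, 4977 to 8767 with an array left out), 233 in WT (1308 with array weights, 1281 with only the groups compared, 51 without array 3 of WT CLP to 432 without array 3 of KO-labelled sham), 995 for the difference of responses (5834 with array weights, 557 with no filter, 107 without array 2 of WT CLP to 3284 without array 3 of KO-labelled sham), 7246 between genotypes after CLP (4553 without array 2 of WT CLP to 9004) and 2050 after sham (4071 with array weights, 1130 without array 3 of WT sham to 2599). Median centring turned the split of rises and falls from 2553 and 4619 to 5314 and 2236 for CLP in KO-labelled mice, from 416 and 579 to 697 and 352 for the difference of responses, and from 1101 and 949 to 878 and 1365 after sham. Uncalled differences changed sign for Enpep in KO-labelled CLP (0.13 with median centring; 0.039 without array 3 of KO-labelled CLP, and down to -0.25 without array 1), for Agtr1a in WT CLP (0.070 with median centring; 0.062 without array 2 of WT CLP, 0.0042 and 0.0045 without array 2 and 3 of WT sham, and down to -0.12 without array 1 of WT sham) and for the second Ace probe set in WT CLP (-0.080 without array 3 of WT sham, up to 0.32 without array 2). The cause was not tested.

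The replicate numbers were not taken to pair the samples: deviations of same-numbered arrays correlated at -0.10 to 0.12, over 0.1 in 2 of 18 pairs, and 7 of 12 arrays correlated best with their own number. With the replicate block the member count after sham was 0, with Ace at an adjusted p of 0.062, and 1928 probe sets were called; the block changed no other member call. Among the pathway genes it ended the calls of Prcp after CLP (adjusted p = 0.059) and of Xpnpep1 after sham (0.057) and with CLP in KO-labelled mice (0.062).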

Other observations

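Cathepsin G (Ctsg), a neutrophil granule protease able to release angiotensin II, was above the array median on 2 of 12 arrays and was not tested. It read 9.91, 35.6 and 126 in KO-labelled CLP, against 0.790, 2.81 and 0.748 in KO-labelled sham, and 0.842, 2.21 and 0.725 in WT CLP, against 14.3, 7.77 and 0.903 in WT sham. The 7 measured neutrophil markers summed to 39295 to 42712 in KO-labelled CLP and 10228 to 25693 in KO-labelled sham. In WT they summed to 32862 to 35650 after CLP and 8992 to 15263 after sham. They did not go 1 way between genotypes after CLP: 2 were called higher in KO-labelled lung (Ngp and Camp), 1 lower (Mmp9) and 4 were not called. Of all probe sets 12.6% were higher and 16.9% lower in that comparison.

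Several peptidase genes read differently on array 3 of the KO-labelled groups. Prep was 383, 312 and 164 on arrays 1, 2 and 3 of KO-labelled sham, with array 3 below the 171 to 227 of KO-labelled CLP. Cpm, a membrane carboxypeptidase that trims kinins, was 1075, 986 and 376 in KO-labelled CLP and 1065, 1005 and 697 in KO-labelled sham, with array 3 lowest in each.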
